A study of Mus musculus with 11 samples.

Results

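Cultured lines of mouse cells were compared with mouse organs on 2-colour cDNA microarrays. The comparison used 9 of the 11 arrays of the series. The line arrays were those labelled 3T3, HRAS_MEL, VA_475, VA_MEF, D6_MEL and NRAS_MEL (n = 6), and the organ arrays those labelled Kidney, Liver and Lung (n = 3). Arrays were chosen by label and not by the values of any gene tested, except that the arrays labelled Heart and Melan A were set aside because their marker genes go against their labels. Each line and each organ was measured on a single array with no dye swap, so lines stand in for replicates of culture and organs for replicates of tissue, and p-values measure the spread among these lines and among these organs. D6_MEL and NRAS_MEL share the code C3 in their descriptions and correlated at 0.794 across genes, so they may not be independent lines. The counts of calls without either are given below.

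The series concerns RAS isoforms in melanocytes, the pigment cells of the skin. On every array the sample's own RNA, extracted with Trizol, was labelled with Cy3, and a mouse embryo RNA common to all arrays was labelled with Cy5. 3T3 is an established mouse fibroblast line, and MEL was read as melanocyte from the title of the series. The descriptions give a code in place of a cell type for several lines (862 for HRAS_MEL, B475 for VA_475, BAKE for VA_MEF, C3 for D6_MEL and C3 Nras for NRAS_MEL), and the cell type of VA_475, the way each RAS gene was introduced, the passage and the age and strain of the animals are not stated in the labels. Values below are log2 of own RNA over embryo reference, centred on each array's median, so 0 is the level at which the typical probe sits. The direction of the deposited ratio is not stated and was taken as reference over own RNA, which is likely. Turned this way, Lrp2, the endocytic receptor of the kidney tubule, read 5.6 on the array labelled Kidney, and with the opposite direction every sign below would turn. Base 2 was assumed for the deposited logs.

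Several labels went against marker genes, and each is therefore written as the array's label. Plasma protein and liver enzyme genes were high on the array labelled Lung, where albumin (Alb) read 2.54, against -6.21 on the array labelled Kidney and -6.95 on the array labelled Liver. Lung alveolar genes were high on the array labelled Liver, where Sftpd, a surfactant protein, read 5.75 against -2.10 and -1.25 on those labelled Kidney and Lung. Crossed labels between these arrays would leave both of them among the organs. Kidney tubule genes were high on the array labelled Kidney, where the median of 6 measured markers was 3.36 against 0.15 and -0.27 on those labelled Liver and Lung. The array labelled VA_MEF carried a high value of the melanosome gene Rab38, 3.40 against -1.22 to 0.06 in the other lines, MEL-labelled lines included. The median of 14 melanocyte genes was 0.48 there, -0.09 to 0.16 in the other lines and -0.25 to 0.29 in the organs. Of the arrays set aside, the array labelled Melan A carried heart muscle genes (median of 7 markers 3.21, against -1.42 to -0.48 on the 9 arrays compared), and the array labelled Heart correlated at 0.922 across genes with that of D6_MEL. With both arrays added under their labels, 0 genes passed the test between lines and organs (limma, Benjamini-Hochberg adjusted p under 0.05, 820 genes with an unadjusted p under 0.05). Every call below therefore rests on setting these 2 arrays aside.

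Cultured lines are selected for continued division in medium, and a growing cell must copy its DNA, build ribosomes and make amino acids and nucleotides. Organs hold mostly cells that do not divide, together with blood, vessels, resident immune cells and epithelia that take up, oxidise and secrete. In bulk RNA, fewer cells of a type and less RNA per cell cannot be told apart. The embryo reference itself contains dividing cells and many cell types, so a value near 0 means a level like that of an embryo and not an absence.

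Of 7042 genes with a value on all 9 arrays, 805 (11.4%) differed between lines and organs (limma, adjusted p under 0.05). In the lines 327 genes (4.64%) were higher and 478 (6.79%) lower. These shares are the background for the list counts below. The lines and organs did not overlap for 1205 genes (17.1%), and 705 of the 805 called genes did not overlap. Differences of at least 2-fold made up 233 of the calls higher in the lines and 391 of those lower. Over all tested genes the median difference, lines minus organs, was -0.03, with 3334 genes above 0 and 3708 below. The number of calls depended on single arrays. Without the array labelled Kidney 97 genes were called higher and 213 lower, without Lung 134 and 263, without 3T3 160 and 220, without VA_475 205 and 267, without NRAS_MEL 212 and 280, and without D6_MEL 238 and 325. Without the array labelled Liver the counts were 472 and 743. Of the 128 called genes named for their values or lists, 57 lost the call without the array labelled Kidney, 54 without Lung, 42 without 3T3, 40 without VA_475, 37 without NRAS_MEL, 31 without D6_MEL, 21 without VA_MEF, 14 without HRAS_MEL and 12 without Liver.

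**Figure D1:**
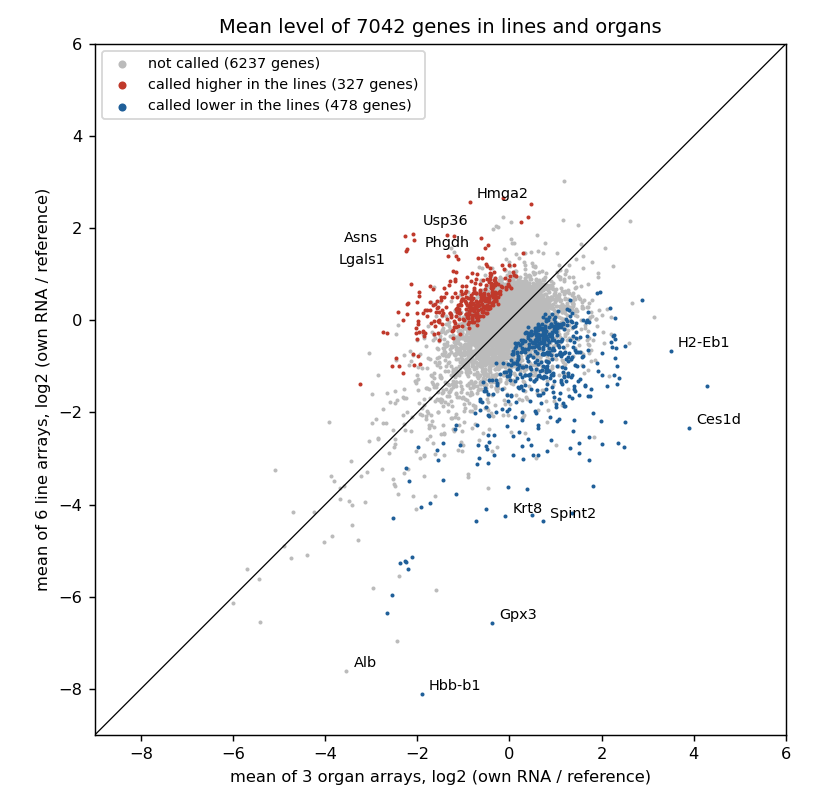
Mean of the 3 organ arrays (horizontal axis) against mean of the 6 line arrays (vertical axis) for 7042 genes, both as log2 of own RNA over embryo reference. Red points are the 327 genes called higher in the lines, blue points the 478 called lower, grey points the rest, and the diagonal marks equal means; Ces1d and Hbb-b1 lie far below it and Asns, Usp36 and Hmga2 above it.

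The lines resembled each other more than the organs did. Across genes, the 15 pairs of lines correlated at 0.577 to 0.803 (median 0.661), the 3 pairs of organs at 0.287 to 0.573 (median 0.412), and the 18 line and organ pairs at 0.108 to 0.381 (median 0.241). These are descriptions across genes, which are not independent, and all arrays share the same reference RNA. The highest pair was 3T3 with VA_475. The spread of the typical gene was nevertheless alike in both classes, with a median SD of 0.353 over lines and 0.366 over organs. The SD over organs was the larger for 3588 of 7042 genes. Single genes differed: SDs over lines and organs were 0.48 and 4.64 for Gpx3, and 1.17 and 0.31 for Hmga2. The test pooled the spread of both classes, so an SE or p below can understate the spread within the wider class.

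The enzymes that build serine and asparagine included the largest difference among genes higher in the lines. Serine is made from a glycolytic intermediate by Phgdh, Psat1 and Psph, mitochondrial folate enzymes such as Mthfd2 turn serine carbon into formate for nucleotides, and Asns makes asparagine. Of 13 measured genes on this list, 5 (38.5%) were called higher and 1 (7.69%) lower, beside 4.64% and 6.79% over all genes. The median difference was 1.32, against -0.03 over all genes, with 8 differences above 0 and 5 below. The count of higher calls was 4 to 7 when any single array was left out. The array medians of the list were 0.14 to 1.80 in the lines and -0.25, -0.69 and -0.56 on the arrays labelled Kidney, Liver and Lung, the order in which organ values are given from here on.

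Asns read 0.14 to 2.99 in the lines (median 1.78) and -2.37, -1.58 and -2.84 in the organs. Every line was above every organ, HRAS_MEL was the lowest line, and VA_MEF and D6_MEL were the highest. The difference of 4.09 ± 0.58 (SE), or 17.0-fold, had a limma adjusted p of 0.00321. Phgdh, the first enzyme of serine synthesis, read 0.70 to 2.53 in the lines (median 1.83) and -1.43, -1.77 and -3.03 in the organs. The classes were again separate, with VA_475 lowest among the lines and the array labelled Lung lowest among the organs. Its difference was 3.82 ± 0.43 (adjusted p = 0.00124), and its 3 probes gave 3.77 to 3.88. Psat1, the aminotransferase of the next step, read 0.14 to 1.67 in the lines (median 0.70) and -1.29, -2.22 and -2.91 in the organs, without overlap (difference 2.93 ± 0.40, adjusted p = 0.00296). Mthfd2, the mitochondrial folate enzyme, read 0.55 to 3.57 in the lines (median 1.67) and -1.35, -0.79 and -1.48 in the organs. VA_MEF was its highest line and HRAS_MEL its lowest, and all lines lay above all organs (3.03 ± 0.55, adjusted p = 0.0104).

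The promoter of Asns is shown because it carries the letters of the amino acid response element, TGATGNAA, the sequence at which the transcription factor ATF4 is known to act on this gene. The stretch is the 200 bases before the annotated start from the RefSeq promoter table of build GRCm38.p6, read 5′ to 3′ on the gene's strand (minus), at chr6:7693210-7693409. Capitals mark the motif.
Asns: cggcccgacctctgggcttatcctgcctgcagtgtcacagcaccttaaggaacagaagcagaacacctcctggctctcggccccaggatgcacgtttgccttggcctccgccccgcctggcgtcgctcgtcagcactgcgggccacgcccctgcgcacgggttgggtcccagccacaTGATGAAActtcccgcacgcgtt
The table holds 250 bases before to 50 after each start, and TGATGNAA was searched on both strands. It was present in 169 of 5690 tested genes with a window (2.97%), in 2 of 11 genes of the serine list with a window, and in 1 of the 5 that were called higher, which is Asns. A match describes letters and was not tested as a binding site.

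Mitosis was the list with the most genes higher in the lines. Cyclin B and Cdk1 drive entry into mitosis, Plk1 and the Aurora kinases build the spindle, and Cdc20 starts the destruction of securin and cyclin at anaphase. Of 57 measured genes, 35 (61.4%) were called higher and 1, Ckap2, lower, beside 4.64% and 6.79% over all genes, and 53 differences were above 0 (median 1.28). Array medians of the list were -0.31 to 0.45 in the lines and -1.43, -0.94 and -1.06 in the organs, so the lines lay near the embryo reference and the organs below it. VA_MEF was the lowest line. Between 23 and 38 genes were called higher when any single array was left out, the lowest number being that without the array labelled Kidney (the highest without VA_MEF). With the 3 arrays in doubt removed together (VA_MEF, Liver and Lung) 31 were called higher.

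Anln, the anillin scaffold of the cleavage furrow, read 0.95 to 1.85 in the lines (median 1.37) and -2.16, -0.94 and -0.90 in the organs. All lines were above the reference and all organs below it, with the array labelled Kidney lowest (2.72 ± 0.31, adjusted p = 0.00124). Plk1, the polo kinase, read -0.76 to 0.87 in the lines (median 0.45) and -2.90, -1.59 and -2.18 in the organs. VA_MEF was the single line below the reference and still lay above every organ (2.58 ± 0.39, adjusted p = 0.00462). Ndc80, the kinetochore protein that holds microtubules, read 0.06 to 0.92 in the lines (median 0.82) and -2.05, -1.36 and -1.54 in the organs. The classes were separate and NRAS_MEL was the lowest line (2.33 ± 0.25, adjusted p = 0.00112). Top2a, the topoisomerase that untangles sister chromatids, had 2 probes and read -0.52 to 0.55 in the lines (median 0.31) and -3.04, -1.51 and -2.11 in the organs. NRAS_MEL and VA_MEF were its lowest lines, both above all organs (2.35 ± 0.36, adjusted p = 0.00536). Nusap1, a spindle microtubule protein, read -1.22 to 1.09 in the lines (median -0.37) and -2.85, -2.51 and -2.85 in the organs, with VA_475 alone above the reference (2.48 ± 0.42, adjusted p = 0.0075). Trim59, a ubiquitin ligase of the TRIM family, lay outside the list. It read -0.02 to 0.78 in the lines (median 0.35) and -2.49, -1.88 and -2.25 in the organs, and its separation was among the clearest by p (2.58 ± 0.25, adjusted p = 0.000681).

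Promoters of mitotic genes often carry CCAAT boxes beside a cell cycle homology region whose core is TTTGAA. The following promoters were the 3 with the largest differences among 14 called mitosis genes that hold both letter runs in the 200 bases before the start. They were chosen for holding these letters, so that they share them is not a finding. Capitals mark CCAAT and TTTGAA on either strand (ATTGG and TTCAAA are their reverse complements), each sequence runs 5′ to 3′ on the gene's strand, which is minus for all 3, and the source is RefSeq, build GRCm38.p6. The stretches lie at chr11:99024190-99024389 (Top2a), chr4:118437344-118437543 (Cdc20) and chr10:69352913-69353112 (Cdk1).
Top2a: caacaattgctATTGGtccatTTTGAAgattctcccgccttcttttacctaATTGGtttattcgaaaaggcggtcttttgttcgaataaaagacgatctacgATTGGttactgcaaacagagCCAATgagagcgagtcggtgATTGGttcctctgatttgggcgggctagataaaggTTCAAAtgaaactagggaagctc
Cdc20: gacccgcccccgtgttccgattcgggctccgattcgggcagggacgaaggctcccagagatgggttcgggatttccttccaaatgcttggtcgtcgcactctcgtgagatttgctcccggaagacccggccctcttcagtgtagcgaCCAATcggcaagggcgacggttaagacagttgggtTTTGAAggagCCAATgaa
Cdk1: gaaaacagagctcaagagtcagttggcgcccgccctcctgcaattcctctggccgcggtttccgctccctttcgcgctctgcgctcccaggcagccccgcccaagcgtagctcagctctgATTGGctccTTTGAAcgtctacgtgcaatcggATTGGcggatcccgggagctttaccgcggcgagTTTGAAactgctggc
In the windows of 250 bases before to 50 after the start, both runs were found in 20 of the 30 called mitosis genes that had a window (66.7%) and in 29 of 48 measured mitosis genes with a window (60.4%). The same pair was found in 342 of 5690 tested genes (6.01%), in 2284 of the 32851 windows searched (6.95%) and in 1 of 33 DNA replication genes (3.03%). TTTGAA alone was in 22 of the 30 called mitosis genes (73.3%) and in 14.3% of tested genes, and CCAAT alone in 23 of 30 (76.7%) and in 43.1%. The runs were searched on both strands and matches of different motifs may share bases. These shares describe promoters and were not tested.

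Of 40 DNA replication genes, 11 (27.5%) were called higher and 0 lower, with a median of 0.75. Mcm2, a subunit of the replicative helicase, read -0.63 to 0.70 in the lines (median 0.36) and -2.22, -1.62 and -2.18 in the organs, with no overlap and HRAS_MEL lowest among the lines (2.17 ± 0.31, adjusted p = 0.00376). Lig1, the ligase that joins Okazaki fragments, read -0.60 to 0.08 in the lines and -2.71, -1.52 and -1.79 in the organs, also without overlap (1.61 ± 0.29, adjusted p = 0.00919). Prim1, the primase subunit, and Hells, a chromatin remodeller, differed by 1.45 ± 0.27 (adjusted p = 0.0113) and by 1.99 ± 0.51 (adjusted p = 0.0357). The count fell to 4 without the array labelled Kidney, to 5 without Lung or without 3T3, and was 16 without the array labelled Liver.

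Among 17 regulators of entry into the cell cycle, 4 (23.5%, beside 4.64% over all genes) were called higher and 0 lower. They were Ccne1 (cyclin E1), Cdk4 (the kinase partner of the D cyclins), Myc and Rbl1 (the p107 pocket protein). Ccne1 read -0.92 to 0.62 in the lines and -2.40, -1.29 and -2.24 in the organs, with HRAS_MEL and VA_MEF the lowest lines and no overlap (1.96 ± 0.41, adjusted p = 0.0175). Cdk4 read -0.24 to 0.79 in the lines and -1.73, -0.92 and -1.98 in the organs (1.84 ± 0.33, adjusted p = 0.00966). Myc, the growth-promoting transcription factor, read -0.98 to 0.86 in the lines and -2.08, -1.60 and -1.69 in the organs; D6_MEL and HRAS_MEL were below the reference but above all organs (1.88 ± 0.41, adjusted p = 0.0214). Myc was also the single call among 15 immediate early genes. Without the array labelled Kidney, or without Lung, 1 of the 17 regulators was called higher.

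**Figure D2:**
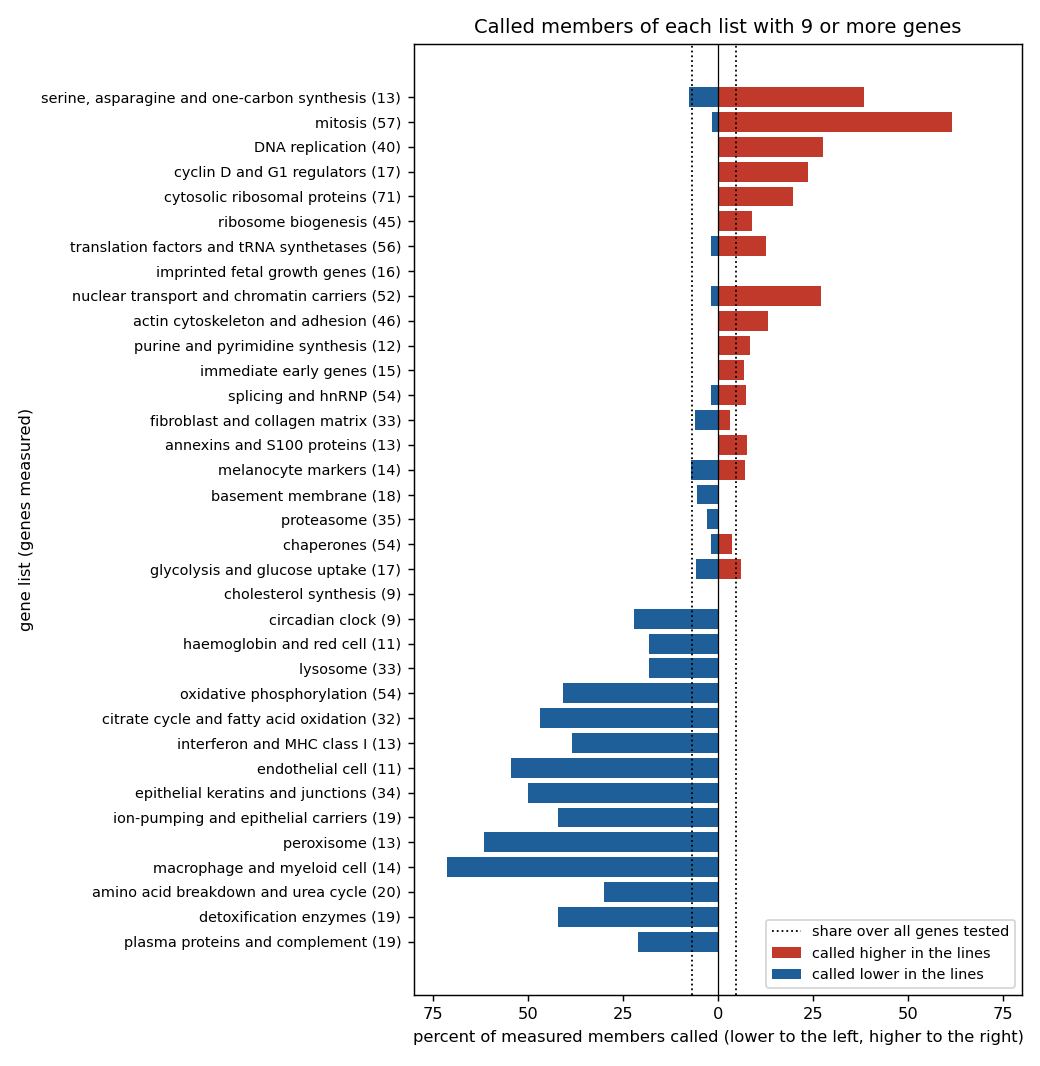
Share of the measured members of each gene list called higher (red, to the right) or lower (blue, to the left) in the lines, in percent, for lists with 9 or more genes; the number measured is in brackets and the dotted lines mark the shares over all tested genes, 4.64% and 6.79%. Mitosis reaches 61.4% to the right and macrophage and myeloid genes 71.4% to the left.

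Most genes of the translation machinery had a difference above 0, and a minority passed the test. Of 71 cytosolic ribosomal protein genes, 70 had a difference above 0, with a median of 0.64. Calls numbered 14 higher (19.7%) and 0 lower, beside 4.64% and 6.79% over all genes. Rps2, a small-subunit protein, read 0.38 to 1.22 in the lines (median 0.74) and -0.30, -0.56 and -0.08 in the organs, with no overlap (1.09 ± 0.22, adjusted p = 0.014). Rpl39 of the large subunit read 0.01 to 0.89 in the lines and -1.51, -0.26 and -1.11 in the organs (1.38 ± 0.29, adjusted p = 0.0172). The ribosomal count rested on single arrays: it was 0 without the array labelled Kidney, 1 without Lung, 4 without 3T3 or without VA_475, 5 without NRAS_MEL, 8 without D6_MEL and 37 without the array labelled Liver. Ribosomal protein genes have many processed copies in the genome, and cross-hybridisation to them was not tested.

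Of 45 ribosome biogenesis genes 4 (8.89%, beside 4.64% over all genes) were called higher and 0 lower. Nop2, the nucleolar RNA methyltransferase, read -0.68 to 1.13 in the lines (median 0.15) and -2.10, -2.91 and -2.24 in the organs (2.60 ± 0.38, adjusted p = 0.00438). Nop56 and Nop58, core proteins of box C/D particles, differed by 1.47 ± 0.37 (adjusted p = 0.0341) and by 0.71 ± 0.20 (adjusted p = 0.0487). The 2 probes of Nop58 differed by 0.0028 and 1.42, and its call was lost in 16 of 21 alternative settings. The 4 calls became 0 with VA_MEF, Liver and Lung removed, 1 without the array labelled Kidney, Lung or VA_475, 2 without 3T3, D6_MEL or NRAS_MEL, and 7 without HRAS_MEL. Usp36, a deubiquitinase of the nucleolus, was outside this list. It read 1.21 to 2.82 in the lines (median 1.76) and -2.10, -2.19 and -1.96 in the organs, and the lines and organs were more than 3 log2 units apart (3.95 ± 0.36, adjusted p = 0.000447).

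Among 56 translation factors and tRNA synthetases 7 (12.5%, beside 4.64% over all genes) were called higher and 1 lower (median 0.52). Gars, which charges glycine onto its tRNA, read 0.08 to 1.93 in the lines (median 1.30) and -0.60, -0.27 and -0.57 in the organs (1.66 ± 0.34, adjusted p = 0.0159). Lars, the leucine enzyme, read 0.65 to 1.44 in the lines and -0.56, -0.23 and -0.23 in the organs, and Rars, the arginine enzyme, 0.32 to 1.12 and -0.74, -0.35 and -0.23. Neither overlapped between classes (1.38 ± 0.23, adjusted p = 0.00736 for Lars and 1.27 ± 0.24, adjusted p = 0.0122 for Rars). Eif2s2, a subunit of the initiation factor that brings the first tRNA, was higher on the mean of 4 probes (1.35 ± 0.27, adjusted p = 0.014). The count of higher calls was 1 without the array labelled Kidney and 5 to 7 without any other single array.

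Chromatin and nuclear transport genes gave 14 higher (26.9%) and 1 lower call among 52. Hmga2, an architectural chromatin protein of embryonic and transformed cells, read 0.47 to 3.92 in the lines (median 2.90) and -1.20, -0.80 and -0.58 in the organs. VA_MEF was far below the other 5 lines, which all lay above 2, and NRAS_MEL was highest (3.43 ± 0.61, adjusted p = 0.00919). Ezh2, the H3K27 methyltransferase, read -0.47 to 0.28 in the lines and -1.86, -0.99 and -2.02 in the organs (1.49 ± 0.26, adjusted p = 0.00833). Nup93, a scaffold of the nuclear pore, read -0.83 to 1.27 in the lines and -1.34, -2.45 and -2.10 in the organs (2.48 ± 0.46, adjusted p = 0.0109). The lower call was Cbx5, the HP1 alpha protein, at -1.56 ± 0.34 (adjusted p = 0.0215), and its 3 probes went different ways. A single probe differed by -6.03, and the others by 0.45 and 0.91; with the median of probes or the first probe the difference of Cbx5 was 0.56 or 0.45. The list's higher calls numbered 4 without the array labelled Kidney, 7 without Lung or without 3T3, and 6 with VA_MEF, Liver and Lung removed.

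Among 54 splicing genes 4 were higher and 1 lower, near the share of all genes. Hnrnpa1, a splicing regulator with 3 probes, read -1.20 to 0.35 in the lines and -1.60, -2.00 and -2.28 in the organs (1.71 ± 0.34, adjusted p = 0.014). Snrpf and Snrpg, Sm core proteins, differed by 1.39 ± 0.27 (adjusted p = 0.0137) and 1.19 ± 0.24 (adjusted p = 0.0154). The lower call, Hnrnph1, rested on a single probe that read -6.47 to -5.73 in the lines and -3.46, -0.15 and -4.03 in the organs (-3.43 ± 0.69, adjusted p = 0.0149). Its order over the organs, with the array labelled Liver highest and Lung lowest, was that of the beta globin gene Hbb-b1 and of the deviating Cbx5 probe, so whether the probe measures Hnrnph1 is in doubt and was not tested. Of the splicing genes 1 was called higher without the array labelled Kidney or Lung.

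Lgals1, the carbohydrate-binding protein galectin-1 of mesenchymal cells, read 0.57 to 2.24 in the lines (median 1.69) and -2.17, -1.38 and -3.11 in the organs. VA_MEF was the lowest line and NRAS_MEL the highest, with no overlap (3.76 ± 0.43, adjusted p = 0.00137). The probe named for Fgf22, a fibroblast growth factor, gave nearly the same difference (3.77 ± 0.42, adjusted p = 0.00124), and on the 9 arrays its values lay 0.0026 to 0.356 from those of Lgals1, and whether the 2 names are separate measurements was not tested. Tnfrsf12a, the receptor of the cytokine TWEAK, read 1.02 to 3.42 in the lines (median 2.97) and -0.55, 0.79 and -0.65 in the organs; HRAS_MEL was the line nearest to the organs (2.79 ± 0.52, adjusted p = 0.0113). Without the array labelled Kidney Tnfrsf12a did not pass the test. Prmt8, an arginine methyltransferase, read -0.29 to 3.15 in the lines (median 2.0) and -2.06, -0.47 and -1.5 in the organs, with VA_MEF just above the highest organ (3.19 ± 0.65, adjusted p = 0.0155). Fez1, an adaptor of kinesin transport, read -1.17 to 2.0 in the lines and -2.32, -1.49 and -2.10 in the organs (2.58 ± 0.65, adjusted p = 0.0337). Prmt8 lost its call without the array labelled Kidney or Lung. Fez1 lost it without Kidney, Lung, 3T3, VA_475, D6_MEL or NRAS_MEL.

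Of 46 actin cytoskeleton and adhesion genes 6 were called higher and 0 lower. Tes (testin) and Zyx (zyxin), LIM proteins of focal adhesions, differed by 2.11 ± 0.48 (adjusted p = 0.0254) and 1.47 ± 0.40 (adjusted p = 0.0417). Tes was separate between classes and highest in D6_MEL and NRAS_MEL (2.58 and 2.76), whereas NRAS_MEL (0.24) overlapped the array labelled Liver (0.49) for Zyx. Tmsb10, a thymosin that binds actin monomers, read -0.87 to 0.50 in the lines and -3.52, -0.78 and -3.66 in the organs, with the array labelled Liver among the lines (2.37 ± 0.60, adjusted p = 0.0341). This count was 0 without the array labelled Kidney, 1 without Lung, 3T3 or D6_MEL, 2 without VA_475 or NRAS_MEL and 11 without the array labelled Liver. Vim, the intermediate filament of mesenchymal cells, was the single higher call among 33 fibroblast and collagen genes. It read 0.06 to 1.49 in the lines (median 0.90) and -1.36, -0.30 and -0.83 in the organs, with no overlap (1.69 ± 0.33, adjusted p = 0.0133). In the same list Tcf21, a transcription factor of organ mesenchyme, and Lum, a matrix proteoglycan, were lower in the lines (-2.90 ± 0.48, adjusted p = 0.00685 and -0.76 ± 0.21, adjusted p = 0.0472). Lum lost its call in 17 of 21 alternative settings. The shares called in this list, 3.03% higher and 6.06% lower, were near those of all genes (4.64% and 6.79%).

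Genes of respiration were lower in the lines. The electron transport chain and ATP synthase make most ATP in heart, kidney and liver cells, and fatty acids are a main fuel of the kidney tubule. Of 54 oxidative phosphorylation genes 22 (40.7%) were called lower and 0 higher, 53 differences were below 0, and the median was -0.96. Array medians were narrow in the lines, -0.60 to -0.25, and were 0.82, -0.13 and 0.50 in the organs, so the array labelled Liver, which carried lung genes, lay nearest to the lines. The number called lower was 1 without the array labelled Kidney, 3 without Lung or 3T3, 5 without VA_475, 11 or 12 without D6_MEL or NRAS_MEL, and 40 without the array labelled Liver.

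Ndufs7, a subunit of complex I, read -1.84 to -1.03 in the lines (median -1.10) and 0.67, -0.05 and 0.20 in the organs. VA_MEF was lowest and no line reached an organ (-1.5 ± 0.24, adjusted p = 0.00617). Sdhd of complex II read -1.62 to -1.08 in the lines and 0.49, -0.90 and 0.79 in the organs (-1.44 ± 0.34, adjusted p = 0.027). Uqcrc2 of complex III read -1.57 to -0.69 in the lines and 1.91, -0.70 and 0.98 in the organs, where the array labelled Liver met D6_MEL (-1.98 ± 0.47, adjusted p = 0.0277). Atp5a1, the alpha chain of ATP synthase, read -2.48 to -1.28 in the lines and 1.17, -1.23 and 0.51 in the organs, with the array labelled Liver just above D6_MEL (-1.92 ± 0.47, adjusted p = 0.0307). All 4 of these genes had the array labelled Liver as the lowest organ.

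Of 32 citrate cycle and fatty acid oxidation genes 15 (46.9%) were called lower and 0 higher (median -1.22). Acaa2, the mitochondrial thiolase, read -3.69 to -2.11 in the lines (median -3.13) and 0.37, -1.53 and 2.06 in the organs, without overlap (-3.31 ± 0.64, adjusted p = 0.0128). Acadm, which starts oxidation of medium-chain fatty acids, read -2.60 to -0.85 in the lines and 3.13, -1.32 and 1.23 in the organs; HRAS_MEL was above the array labelled Liver (-2.89 ± 0.78, adjusted p = 0.0417). Acat1 and Hadh, later enzymes of the pathway, also overlapped through that array (-2.27 ± 0.55, adjusted p = 0.0293 and -2.18 ± 0.58, adjusted p = 0.0403). The number called lower was 2 without the array labelled Kidney or Lung, 4 or 5 without 3T3, VA_475 or NRAS_MEL, 8 without D6_MEL and 25 without Liver.

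Peroxisomal genes were called lower in 8 of 13 (61.5%) and higher in 0, with a median of -1.69. Scp2, a sterol carrier protein with 3 probes, read -2.04 to -0.66 in the lines (median -1.20) and 2.0, 0.41 and 3.62 in the organs, with no overlap (-3.20 ± 0.58, adjusted p = 0.0103). Cat (catalase) read -3.07 to -0.17 in the lines and 1.98, -0.52 and 3.99 in the organs, where VA_MEF exceeded the array labelled Liver (-3.83 ± 0.89, adjusted p = 0.0259). Abcd3, a fatty acid transporter, and Ech1, an isomerase, were separate between classes (-2.13 ± 0.43, adjusted p = 0.0151 and -2.08 ± 0.37, adjusted p = 0.00919). The count was 3 without the array labelled Kidney and 5 without 3T3, VA_475, NRAS_MEL or Lung.

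Amino acid breakdown and urea cycle genes were called lower in 6 of 20 (30%, beside 6.79% over all genes) and higher in 0 (median -1.84). Got2, the mitochondrial aspartate aminotransferase, read -3.68 to -2.38 in the lines (median -2.68) and -0.83, -0.30 and -0.32 in the organs, with NRAS_MEL lowest and no overlap (-2.30 ± 0.29, adjusted p = 0.00199). Gldc, the decarboxylase of the glycine cleavage system, read -1.40 to -0.81 in the lines and 1.78, -0.69 and 2.30 in the organs (-2.14 ± 0.53, adjusted p = 0.0323, with its 3 probes from -2.96 to -0.48). Ivd, of leucine breakdown, read -0.81 to 0.58 in the lines and 1.99, 0.59 and 1.74 in the organs, where HRAS_MEL came within rounding of the array labelled Liver (-1.82 ± 0.38, adjusted p = 0.0164). The 6 calls became 2 without the array labelled Kidney or Lung, 3 without 3T3, VA_475 or NRAS_MEL, and 12 without Liver.

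Glycolysis genes had no common direction, with 1 call each way among 17 and a median of -0.11, which was 0.27 after quantile normalization. Pkm, pyruvate kinase of muscle and dividing cells, read -0.08 to 1.69 in the lines and -0.79, -0.67 and -3.72 in the organs (2.46 ± 0.65, adjusted p = 0.0383), and Aldoc, an aldolase, was lower (-1.36 ± 0.31, adjusted p = 0.0238). Pkm lost its call in 11 of 21 alternative settings and Aldoc in 7. In purine and pyrimidine synthesis 1 of 12 genes was called, Ctps, which makes CTP (1.40 ± 0.29, adjusted p = 0.0172). Of 9 cholesterol synthesis genes 0 passed in either direction. Dhcr7, the last enzyme of the pathway, gave -1.35 ± 0.65 (adjusted p = 0.196), with a value of 2.03 on the array labelled Lung and -2.01 to -0.83 elsewhere among the 9 arrays.

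Detoxification enzymes held the largest difference among the calls. These enzymes, including carboxylesterases that split esters, cytochromes and glutathione transferases, are made in liver, kidney and lung. Of 19 measured genes 8 (42.1%) were called lower and 0 higher, with a median of -2.11. Array medians were -1.18 to -0.04 in the lines, HRAS_MEL being highest, and 0.77, 0.49 and 2.48 in the organs. The number called lower was 4 without 3T3, VA_475, NRAS_MEL or the array labelled Lung, 5 without D6_MEL or Kidney, and 4 with VA_MEF, Liver and Lung removed together.

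Ces1d, a carboxylesterase, read -2.60 to -2.06 in the lines (median -2.31) and 3.02, 3.87 and 4.79 in the organs. The 6 lines lay within a narrow band and every organ stood at least 5 log2 units above them (-6.23 ± 0.34, 74.9-fold, adjusted p = 2.92e-05). Ces1f, its neighbour in the same gene family, read -1.75 to -1.08 in the lines and 4.15, 2.74 and 6.0 in the organs (-5.72 ± 0.55, adjusted p = 0.000681). Carboxylesterase genes are close copies, and how far the probes share RNA was not tested. Mgst1, a membrane glutathione transferase, read -3.48 to -1.51 in the lines and -0.13, 2.05 and 5.17 in the organs (-5.03 ± 0.93, adjusted p = 0.0109). Tst, the sulphur transferase rhodanese, read -3.16 to -1.56 in the lines and 0.25, 0.49 and 2.48 in the organs (-3.21 ± 0.51, adjusted p = 0.00599). Both were highest on the array labelled Lung, which carried liver genes.

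Of 19 plasma protein and complement genes 4 (21.1%, beside 6.79% over all genes) were called lower and 0 higher. Array medians were -3.02 to -2.20 in the lines and -1.20, -0.24 and 2.89 in the organs. Serping1, the inhibitor of complement C1, read -4.69 to -3.11 in the lines (median -4.31) and -0.36, 1.0 and 3.42 in the organs. HRAS_MEL stood above the other lines without reaching an organ (-5.54 ± 0.68, adjusted p = 0.0016). The other 3 calls were the C1q chains, which macrophages make: C1qa (-3.49 ± 0.40, adjusted p = 0.00124), C1qc (-1.81 ± 0.43, adjusted p = 0.0283) and C1qb (-1.20 ± 0.32, adjusted p = 0.0417). C1qb overlapped between classes and lost its call in 13 of 21 alternative settings, C1qc in 7 and C1qa in 1. The plasma calls numbered 2 without 3T3, VA_475 or the array labelled Lung, and 8 without the array labelled Liver.

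Outside this list, Selenop, the selenium carrier of plasma, read -5.16 to -1.27 in the lines and 1.0, 0.50 and 3.93 in the organs, with HRAS_MEL nearest to the organs (-5.41 ± 0.95, adjusted p = 0.00873). Clu (clusterin), a secreted chaperone, read -3.78 to 0.10 in the lines and 1.96, 1.33 and 4.24 in the organs, again with HRAS_MEL nearest (-4.71 ± 0.85, adjusted p = 0.00966). Rarres2, the secreted protein chemerin, read -4.57 to -3.95 in the lines and -1.67, 0.86 and 2.24 in the organs, so the lines were close together and the organs were not (-4.72 ± 0.65, adjusted p = 0.00296). Gpx3, the secreted glutathione peroxidase made in the kidney tubule, read -7.53 to -6.24 in the lines (median -6.39) and 4.07, 0.00 and -5.18 in the organs. The array labelled Lung lay near the lines, and the difference of -6.19 ± 1.49 (adjusted p = 0.0283) did not pass without the array labelled Kidney, 3T3, VA_475 or NRAS_MEL. Stard10, a lipid transfer protein, read -3.83 to -0.88 in the lines and 2.5, 0.54 and 4.40 in the organs (-5.24 ± 0.81, adjusted p = 0.00522).

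Organs contain red cells, resident macrophages and lymphocytes, which a pure culture lacks. Of 14 macrophage and myeloid genes 10 (71.4%) were called lower and 0 higher, with a median of -1.81. Array medians were -1.5 to -0.88 in the lines and -0.08, 0.81 and 0.57 in the organs, without overlap. The count was 7 to 9 when any single array was left out, and 4 with VA_MEF, Liver and Lung removed together.

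H2-Eb1, a class II antigen-presenting chain, read -0.91 to -0.36 in the lines (median -0.71) and 3.31, 4.71 and 2.49 in the organs. The lines were tightly grouped and all organs high, the array labelled Liver most (-4.17 ± 0.40, adjusted p = 0.000661). Lcp1, the leukocyte actin-bundling protein, read -2.72 to -1.56 in the lines and -0.82, 1.76 and 0.90 in the organs (-2.95 ± 0.48, adjusted p = 0.00655). Laptm5, a lysosomal protein of blood cells, read -3.71 to -0.95 in the lines and -0.84, 1.91 and 0.30 in the organs, and NRAS_MEL lay just below the array labelled Kidney (-3.16 ± 0.67, adjusted p = 0.0183). Lyz2, the lysozyme of macrophages and alveolar cells, read -4.35 to -1.95 in the lines (median -3.10) and -1.43, 6.18 and 0.47 in the organs. Its difference of -4.76 ± 1.32 (adjusted p = 0.0457) did not pass when any of the 6 line arrays or the array labelled Lung was left out. The lymphocyte genes Ighm, the IgM heavy chain, and Blnk, a B cell adaptor, were both lower (-2.82 ± 0.68, adjusted p = 0.0289 and -1.12 ± 0.30, adjusted p = 0.0417), with Ighm at 3.40 on the array labelled Liver.

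The H2-Eb1 promoter is shown beside the mitotic ones because class II genes are known to carry an inverted CCAAT box, the Y box, close to the start, without the TTTGAA run. It is from RefSeq, build GRCm38.p6, plus strand, chr17:34305667-34305866, and capitals mark CCAAT on either strand.
H2-Eb1: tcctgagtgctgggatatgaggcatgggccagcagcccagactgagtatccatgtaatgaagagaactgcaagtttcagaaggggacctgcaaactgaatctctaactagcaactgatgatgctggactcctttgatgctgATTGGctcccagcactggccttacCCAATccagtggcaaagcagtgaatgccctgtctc
CCAAT was found in 3 of 9 called macrophage genes with a window (33.3%), and CCAAT with TTTGAA in 1 of 9 (11.1%), beside 43.1% and 6.01% of all tested genes.

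Of 11 haemoglobin and red cell genes 2 (18.2%, beside 6.79% over all genes) were called lower, and 3 differences lay above 0. The list's median on the arrays labelled Kidney and Lung (-1.12 and -1.29) fell within the range of the lines (-1.43 to -0.98). Hbb-b1, an adult beta globin, read -8.73 to -7.62 in the lines (median -8.06) and -2.30, 0.24 and -3.65 in the organs. Every line lay far below the reference, and the array labelled Liver was the highest organ (-6.21 ± 0.66, 74.2-fold, adjusted p = 0.00114). Alas2, the haem synthesis enzyme of red cell precursors, read -5.55 to -4.87 in the lines and -3.27, -0.33 and -2.75 in the organs (-3.01 ± 0.53, adjusted p = 0.00919). Both calls held when any single array was left out.

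Interferon and class I antigen-presentation genes were called lower in 5 of 13 (38.5%) and higher in 0 (median -1.23). Igtp, an interferon-induced GTPase, read -1.83 to 0.24 in the lines and 0.58, 0.79 and 2.64 in the organs, with HRAS_MEL the highest line (-2.57 ± 0.55, adjusted p = 0.0188). Tapbp and Tap2, which load peptides onto class I molecules, were also highest among the lines in HRAS_MEL, at 0.53 and 0.69 (-1.73 ± 0.42, adjusted p = 0.0307 and -1.35 ± 0.37, adjusted p = 0.0447). For Tap2 HRAS_MEL overlapped the array labelled Kidney at 0.67, and the call was lost in 13 of 21 alternative settings. Psme1, the proteasome activator subunit, differed by -1.73 ± 0.45 (adjusted p = 0.0356). The list gave 0 calls without the array labelled Lung, 1 without 3T3, D6_MEL, NRAS_MEL or Liver, 2 without VA_MEF, 3 without VA_475 and 6 without HRAS_MEL. With VA_MEF, Liver and Lung removed together 0 were called and the list's median was 0.07, on the other side of 0.

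**Figure D3:**
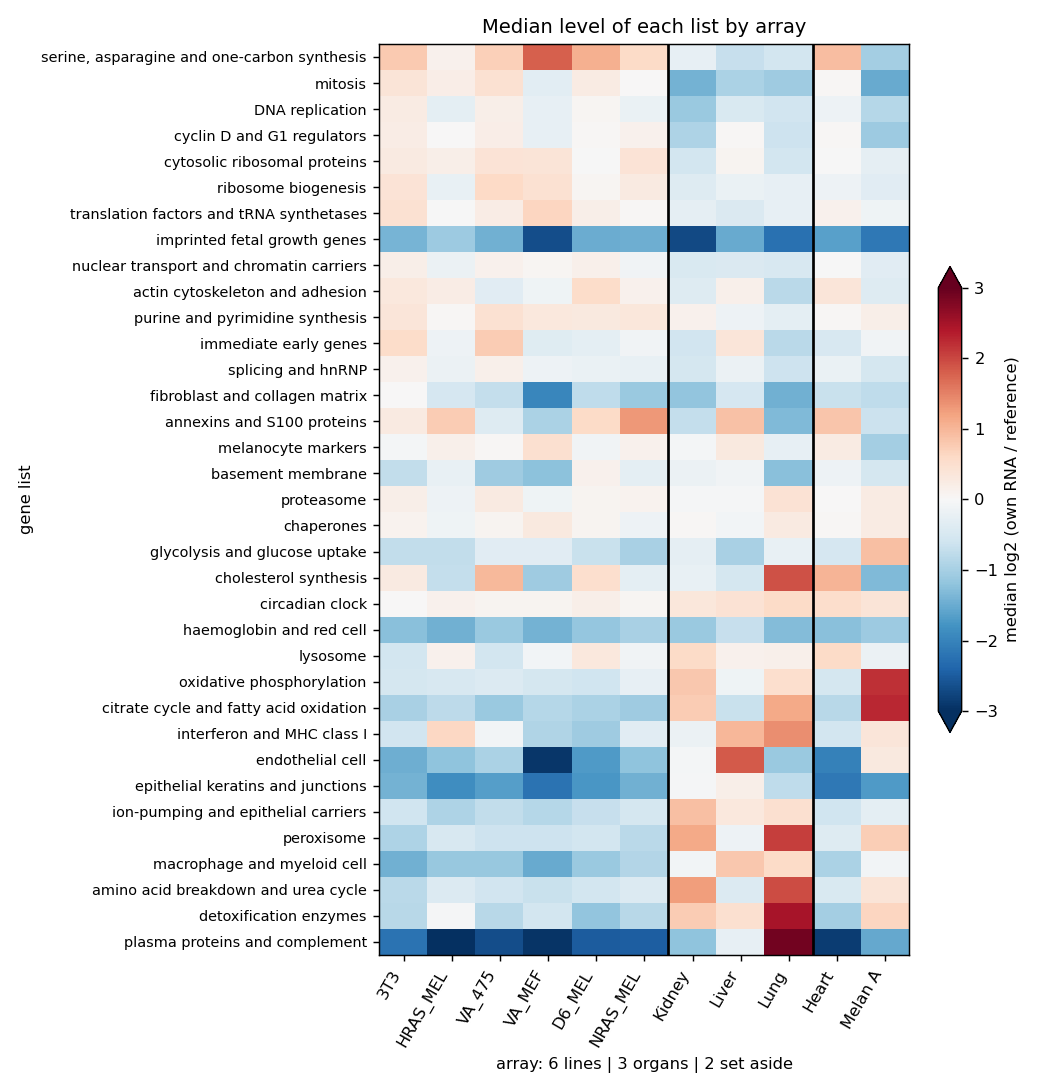
Median level of each gene list on each of the 11 arrays, as log2 of own RNA over embryo reference on a colour scale from blue (low) through white (0) to red (high), with black lines between the 6 lines, the 3 organs and the 2 arrays set aside. Plasma proteins reach 2.89 on the array labelled Lung, and respiration genes reach 2.18 and 2.27 on the array labelled Melan A.

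Epithelial genes were lower in every line. Keratins 8 and 18, claudins and cadherin 1 hold simple epithelia together, and fibroblasts largely lack them. Of 34 measured genes 17 (50%, beside 6.79% over all genes) were called lower and 0 higher. Array medians were -2.23 to -1.43 in the lines and -0.03, 0.17 and -0.75 in the organs. Spint2, an inhibitor of epithelial surface proteases, read -4.87 to -3.97 in the lines (median -4.28) and 0.99, 1.38 and -0.19 in the organs, and the classes were more than 3 log2 units apart (-5.09 ± 0.34, 34.1-fold, adjusted p = 9.18e-05). Krt8, with 3 probes, read -4.90 to -3.86 in the lines and -0.99, 0.16 and 0.55 in the organs (-4.17 ± 0.35, adjusted p = 0.000339). Lsr, a receptor at tricellular junctions, and Cldn3, a claudin, were highest on the arrays labelled Lung (3.15) and Liver (2.60) in turn (-4.10 ± 0.54, adjusted p = 0.00239 and -3.23 ± 0.61, adjusted p = 0.0118). This count was 11 without the array labelled Kidney and 12 to 18 without any other single array, and 18 with VA_MEF, Liver and Lung removed.

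The next 4 genes belong to no list and were named for the size or the p of their differences. Dpp4, a surface dipeptidase of brush borders, read -2.96 to -1.94 in the lines and 1.71, 1.27 and 2.18 in the organs, and lines and organs each kept to a band about 1 log2 unit wide (-4.25 ± 0.29, adjusted p = 9.18e-05). Grb7, an adaptor of receptor kinases, read -2.84 to -2.06 in the lines and 1.42, 0.55 and 2.14 in the organs (-3.78 ± 0.31, adjusted p = 0.000339). Wfdc2, a secreted epithelial protein, read -3.42 to -2.15 in the lines and 2.37, 4.95 and -1.26 in the organs (-4.71 ± 1.02, adjusted p = 0.0201) and lost its call without the array labelled Kidney. Cmtm6, a membrane protein known to stabilise PD-L1, was among the most regular of the lower genes: -1.63 to -1.0 in the lines and 1.24, 0.92 and 1.21 in the organs (-2.41 ± 0.19, adjusted p = 0.000339).

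Of 19 ion pumps and epithelial carriers 8 (42.1%) were called lower and 0 higher (median -1.69). Atp1b1, the beta subunit of the sodium pump, read -4.19 to -1.58 in the lines and 4.08, 1.03 and -0.59 in the organs (-4.40 ± 0.88, adjusted p = 0.0148). Slc39a8, a zinc importer, read -2.84 to -0.97 in the lines and 0.89, 2.18 and 0.48 in the organs (-3.03 ± 0.44, adjusted p = 0.00409), and Abcc3, an export pump for conjugates, -0.93 to -0.09 and 1.88, 1.58 and 4.07 (-3.08 ± 0.48, adjusted p = 0.00541). None of the 3 overlapped between classes. Slc7a8, an amino acid carrier, was high on the array labelled Kidney at 2.56 and differed by -1.92 ± 0.54 (adjusted p = 0.0476). The count was 3 or 4 without any single line or the array labelled Lung, 6 without Kidney and 11 without Liver.

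Of 11 endothelial genes 6 (54.5%) were called lower and 0 higher (median -1.46). Pecam1, the junction protein of vessels, read -2.12 to -1.46 in the lines and -0.07, 2.46 and -0.32 in the organs, without overlap (-2.48 ± 0.52, adjusted p = 0.0172). Emcn (endomucin) read -2.84 to -1.42 in the lines and 1.74, 0.86 and -0.96 in the organs (-2.51 ± 0.53, adjusted p = 0.0188). Podxl, of vessels and kidney podocytes, and Car4, a carbonic anhydrase of capillaries, each overlapped through the array labelled Lung (-3.43 ± 0.87, adjusted p = 0.0337 and -2.99 ± 0.85, adjusted p = 0.0479). The count was 2 without the array labelled Kidney, 3 without 3T3, VA_475, VA_MEF, D6_MEL or NRAS_MEL, and 6 without Lung.

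Lysosomal genes were called lower in 6 of 33 (18.2%, beside 6.79% over all genes) and higher in 0, with a median of -0.55. Ctsh, a lysosomal cathepsin, read -2.64 to 0.18 in the lines and 1.38, 2.03 and 1.94 in the organs; HRAS_MEL was the highest line (-3.28 ± 0.52, adjusted p = 0.00585). Ctsc, the cathepsin that activates granule proteases, was also lower (-2.67 ± 0.59, adjusted p = 0.0218). Lamp2 and Npc1, a membrane protein and the cholesterol exporter, overlapped between classes (-1.40 ± 0.40, adjusted p = 0.0478 and -1.40 ± 0.35, adjusted p = 0.0326). The count was 3 without 3T3, VA_475, VA_MEF, NRAS_MEL or Kidney, and 2 without Lung.

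Markers of a single organ seldom passed the test, and the other organs often lay with the lines. Such a marker spreads widely over the organs, and the test counts that spread against a call. Of 8 liver genes 0 were called. Alb read -8.22 to -7.18 in the lines and was 2.54 on the array labelled Lung alone (-4.08 ± 1.68, adjusted p = 0.133), and Ttr, the thyroxine carrier, behaved alike (-4.26 ± 1.41, adjusted p = 0.0753). Of 5 lung genes the single call was Abca3, the lipid pump of alveolar type II cells, which read 2.14, 2.64 and 0.96 in the organs and -2.20 to -0.07 in the lines (-3.01 ± 0.49, adjusted p = 0.00659). Of 6 kidney genes Podxl and Pdzk1, a scaffold of brush border carriers, were called (Pdzk1 -3.06 ± 0.79, adjusted p = 0.0357, at 4.17 on the array labelled Kidney). The calls of Podxl and Pdzk1 were lost in 10 and 12 of 21 alternative settings. Of 7 heart genes Myl4 was higher and Atp2a2, the calcium pump, lower (1.13 ± 0.31, adjusted p = 0.0436 and -0.61 ± 0.17, adjusted p = 0.0476). The 4 probes of Atp2a2 gave -1.40, -0.83, -0.16 and -0.03, its call was lost in 15 of 21 alternative settings, the median of probes among them (-0.40, adjusted p = 0.125), and its sign turned with Heart and Melan A added by label.

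Melanocyte genes did not separate lines from organs, with 1 call each way among 14 and a median of 0.12. Mlph, the melanophilin that ties melanosomes to myosin, read 2.36 to 3.18 in the 3 MEL-labelled lines and 3.06 in VA_MEF, but -0.71 in 3T3 and -0.34 in VA_475, where it lay among the organs (0.57, 0.22 and -0.48). Ednrb, the endothelin receptor of melanocyte precursors, was lower in every line than in every organ (-3.48 to -2.41 against -1.16, 0.36 and -1.19, difference -2.34 ± 0.36, adjusted p = 0.00541), MEL-labelled lines included. Hps4, of lysosome-related organelles, was higher (0.90 ± 0.24, adjusted p = 0.0414) and lost its call in 12 of 21 alternative settings.

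The remaining lists lay near the shares of all genes or were small. Of 54 chaperones 2 were higher and 1 lower, and of 35 proteasome genes 1 was lower. Basement membrane genes gave 1 lower call among 18 (Lama1, a laminin chain, -1.57 ± 0.35, adjusted p = 0.0216). The list of annexins and S100 proteins gave 1 higher call among 13, the galectin Lgals1, which belongs to neither family. Smooth muscle genes gave 1 lower call among 6 (Mylk, the myosin light chain kinase, -3.01 ± 0.76, adjusted p = 0.0329). Of 9 circadian clock genes 2 (22.2%, beside 6.79% over all genes) were lower, Rora and Npas2 (-1.32 ± 0.28, adjusted p = 0.0187 and -1.13 ± 0.22, adjusted p = 0.0144). Of 16 imprinted fetal growth genes 0 were called, 11 differences were above 0 and the median was 0.49. After quantile normalization 5 were called higher and the median was 1.18, and with array weights 2 were called higher. Cdkn1c, a cyclin kinase inhibitor, read -6.39 to -5.17 in the lines and -4.07, 0.37 and -5.22 in the organs (-2.84 ± 0.98, adjusted p = 0.0837).

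**Figure D4:**
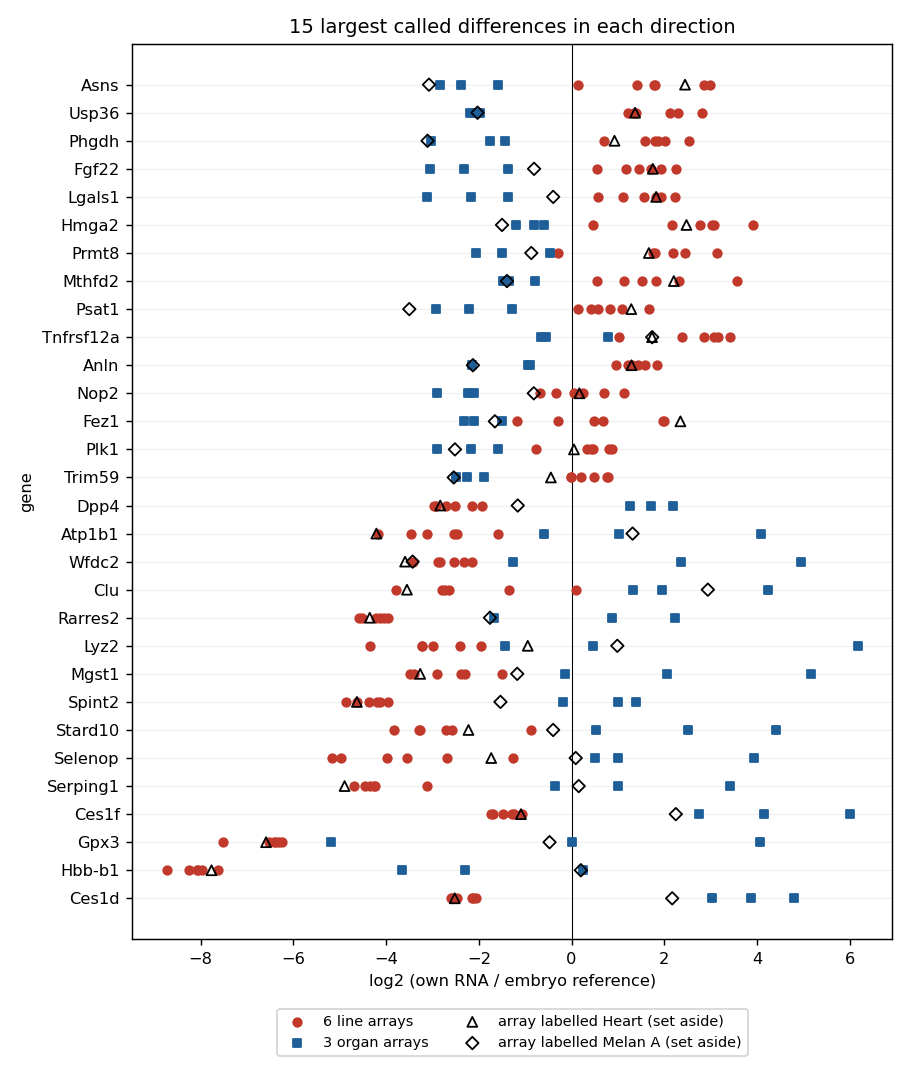
Value of each array for the 15 largest called differences in each direction without overlap, as log2 of own RNA over embryo reference; red circles are the 6 lines, blue squares the 3 organs, the open triangle the array labelled Heart and the open diamond the array labelled Melan A. By the choice of genes without overlap, every line lies to the right of every organ from Asns to Trim59, and to the left from Dpp4 to Ces1d.

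The next 5 genes were named for the largest SDs over the lines. The test between lines and organs counts that spread against a call. Mest, an imprinted gene of growing mesoderm, read 1.79 in D6_MEL and -0.26 in NRAS_MEL but -6.33 to -3.69 in the other 4 lines, and -5.59, -4.57 and -5.12 in the organs (SD over lines 3.29). Tmsb4x, a thymosin that binds actin, read -6.33 in VA_MEF and -2.82 to 1.75 in the other lines. Col1a2, a chain of collagen I, read -0.36 in 3T3, -1.58 in VA_475, -3.05 in HRAS_MEL and -6.72 to -6.57 in VA_MEF, D6_MEL and NRAS_MEL. Cdo1, which oxidises cysteine, stood at 2.82 in HRAS_MEL and -4.09 to -3.04 in the other lines. S100a6, a calcium-binding protein, read -3.10 in VA_MEF and 2.53 to 4.08 in the other lines. None of these 5 genes passed the test between lines and organs (adjusted p from 0.0824 for Cdo1 to 0.845 for Col1a2). S100a6 passed without VA_MEF (3.38, adjusted p = 0.0151, and 2.35 with it, adjusted p = 0.283), and Cdo1 passed without HRAS_MEL (-5.44, adjusted p = 0.00643, and -4.37 with it).

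Among organs the widest genes followed a single array each. Alb and Serpina1e, a plasma protease inhibitor, and Ttr were high on the array labelled Lung, with SDs over organs of 5.28, 5.05 and 4.43. Cbr2, the carbonyl reductase of lung, was at 6.10 on the array labelled Liver and at -1.28 and -1.61 on the others (SD 4.36). Gpx3 was highest on the array labelled Kidney (SD 4.64) and was the single gene of these 5 that passed the test.

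Within the lines, the MEL-labelled arrays (HRAS_MEL, D6_MEL and NRAS_MEL) were set against 3T3, VA_475 and VA_MEF. Of 7042 genes 0 passed limma's test at an adjusted p under 0.05, with 526 at an unadjusted p under 0.05, and 0 passed after quantile normalization (571 unadjusted) or with any line left out. The smallest p belonged to Bcl2l1, the survival protein Bcl-x, with 2.38 ± 0.33 (adjusted p = 0.197), followed by Man2a2, a Golgi mannosidase, with 1.46 ± 0.22 (adjusted p = 0.197), and Frmd8, a FERM domain protein, with 2.14 ± 0.32 (adjusted p = 0.197). Cd81, a tetraspanin, and Matn2, a matrix protein, gave 1.41 ± 0.24 (adjusted p = 0.382) and 2.90 ± 0.52 (adjusted p = 0.42).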

How the data were processed

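RNA was measured on 11 2-colour cDNA arrays, 9 of which were compared. The authors deposited 1 log ratio per probe and array, treated here as log2; no label or header used here states the log base or the normalization, and neither signal over background nor spot intensity was used, so it is unknown which values come from dim spots. Each array was centred on its median (deposited medians -0.0347 to 0.0296) and the sign was turned. Of 15247 probes, 15170 to 15210 had a value per array; 9600 carried 1 gene symbol in the platform annotation, 214 several and 5433 were unlisted. Probes of a symbol were averaged to 7114 genes.

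Lines and organs were compared with limma 3.58.1 (R 4.3.3; lmFit, eBayes, Benjamini-Hochberg over 7042 genes), tested on simulated data. Members, lists and comparisons were chosen with earlier results of these data known. Named genes were the 15 largest non-overlapping called differences and the 5 smallest p in each direction, up to 4 called members per list (the 2 largest where none was called), the 5 largest SDs per class and the 5 smallest p between MEL-labelled and other lines; Ckap2, Lrp2, Sftpd, Rab38 and Mlph were named after their values were seen. Alternatives covered scaling, probe averaging, missing values, variance model, array weights and arrays left out. The number of arrays limits the precision.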

Additional observations from a re-analysis of the deposited data

Results flagged for a closer look

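Among 33 genes named for the size or the p of their difference, 3 had a line whose gap to its nearest neighbour took up more of the range of the 6 lines than Dixon's critical value; chance alone marks about 1 group in 20. Plk1 read -0.76 on the array labelled VA_MEF, against 0.33 in the next line (gap 0.667 of the range). Gpx3 read -7.53 on the array labelled VA_MEF, with the next line at -6.52 (gap 0.782). Serping1 read -3.11 in HRAS_MEL, with the next line at -4.24 (gap 0.715). All 3 genes were chosen among genes without overlap between classes. That the line lay on the same side of all 3 organs follows from this choice.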

How the results depend on the processing

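The counts of 327 genes higher and 478 lower in the lines became 542 and 797 with array weights, 0 and 0 with Heart and Melan A added by label, 52 and 41 with the MEL-labelled lines only, and 85 and 98 with 3T3, VA_475 and VA_MEF only; the last 2 settings have fewer samples, and otherwise the cause was not tested. Leaving out single arrays gave 97 to 472 higher and 213 to 743 lower. The other settings, quantile normalization, no centring, median or first probe, at least 2 values per class, trend and robust variance, and the genes of lowest SD left out, gave 283 to 361 and 386 to 496. In an alternative chosen after seeing the data, without VA_MEF, Liver and Lung, they were 229 and 534. In all of these settings 0 called genes were called with the opposite sign. Over named genes and settings, 2245 values kept direction and side of the threshold, 693 kept direction but lost the call, 12 gained it and 11 turned. The turned values were Cbx5 (0.56 with the median of probes and 0.45 with the first probe), Atp2a2 (0.075 with Heart and Melan A added), Tmsb4x (0.63 with MEL-labelled lines only, 0.62 without VA_MEF, Liver and Lung), Col1a2 (-0.73 with MEL-labelled lines only, -0.21 to 1.08 with single arrays left out, the lowest without 3T3), Mest (-0.14 with 3T3, VA_475 and VA_MEF only), Cbr2 (0.10 without VA_MEF, Liver and Lung, -3.60 to 0.25 with single arrays left out, the highest without Liver) and Idi1 (0.10 without VA_MEF, Liver and Lung); apart from the 2 probe settings, each uses other arrays. Of list medians, 744 moved by less than the SD over lines and 117 by more. No paired analysis was possible because the labels carry no replicate numbers that lines and organs share, and each has a single array.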
